A study of Mus musculus with 12 samples.

Results

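The scavenger receptor genes examined here were Msr1, Marco, Colec12, Cd36, Scarb1, Olr1, Mrc1, Stab1 and Cd163, taken by symbol as 9 of the 55335 genes in the expression table. They were followed in bone marrow-derived macrophages (BMDMs), that is, macrophages that were derived in culture from the marrow of mice aged 8 weeks with macrophage colony-stimulating factor. RNA was sequenced from 12 libraries in 4 groups of 3. Wild-type and Nlrp3-/- BMDMs were each left untreated, as control, or given LPS+ATP. The sample labels give 4 hours of LPS, lipopolysaccharide, followed by 30 min of ATP, whereas the study's methods describe longer exposures to both agents, so the exposure is uncertain. The wild-type mice were C57BL/6 animals bought from another source than the Nlrp3-/- mice, which lack the gene in every cell. Whether the 3 libraries of a group came from separate mice or cultures is not given, so the p-values measure the spread between these libraries, which may be technical. The question was how these receptor transcripts differed with stimulation and with the loss of NLRP3.

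Scavenger receptors are surface proteins of macrophages and endothelial cells that bind modified lipoproteins, bacterial surfaces, dying cells and spent plasma or matrix proteins and carry them into the cell. They are grouped into classes by protein architecture rather than by ancestry, and the same ligand can be taken up by members of several classes. LPS is sensed by Toll-like receptor signalling and primes the NLRP3 inflammasome, which extracellular ATP then triggers.

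Levels are given in FPKM, fragments per kilobase of transcript relative to the mapped fragments of that library. Each library's FPKM total lay between 283278 and 299393, with 21122 to 22613 genes above 0. The number of reads is not known from FPKM. Nlrp3, the deleted gene, was between 9.24 and 10.1 FPKM in wild-type control, between 32.1 and 33.6 FPKM in wild-type LPS+ATP and listed at 0 in all 6 Nlrp3-/- libraries. The 7 macrophage markers were all above 1 FPKM in every library and summed to 19810 to 20960 FPKM in wild-type control and 18930 to 19170 FPKM in Nlrp3-/- control, against 11160 to 11260 and 10510 to 10780 FPKM with LPS+ATP. Most of that sum was Lyz2, which encodes lysozyme, at means of 18464 and 9471 FPKM in wild-type control and LPS+ATP and 17693 and 9309 FPKM in Nlrp3-/-. Adgre1, which encodes F4/80, went the other way, from 237 to 460.3 FPKM in wild-type and from 184 to 327 FPKM in Nlrp3-/- BMDMs. By the limma test described below, 0 of the 7 markers were called lower with LPS+ATP. Of all tested genes, 11.2% were called lower in wild-type and 8.21% in Nlrp3-/- BMDMs. An adjusted p under 0.05 by limma was seen for 6 of the markers in each genotype, against 76.4% and 74.3% of all tested genes. Markers of other cells also differed. The 8 fibroblast markers summed to 162.6 to 193.8 FPKM in the wild-type libraries and 928.2 to 1206 FPKM in the Nlrp3-/- libraries, with none at 0. The 8 granulocyte markers summed to 250.9 to 324.1 FPKM in wild-type libraries, 1465 to 1509 FPKM in Nlrp3-/- control and 633.5 to 639.2 FPKM in Nlrp3-/- LPS+ATP. In wild-type, mean Lcn2 went from 9.96 to 218 FPKM with LPS+ATP and mean S100a9 from 160 to 49.9 FPKM. Of the 7 tested, 1 was called higher and 4 lower with LPS+ATP in wild-type, and 1 and 5 in Nlrp3-/- BMDMs. The shares of all tested genes were 8.25% and 11.2% in wild-type and 6.64% and 8.21% in Nlrp3-/- BMDMs. Xist was at least 32.8 FPKM in every Nlrp3-/- library and at most 0.0416 FPKM in every wild-type library, and 4 Y-linked genes were listed at 0 in Nlrp3-/- libraries alone, so sex and genotype cannot be told apart. Nnt, a mitochondrial transhydrogenase gene known to differ between C57BL/6 substrains, had means of 9.38 and 4.23 FPKM in wild-type control and LPS+ATP against 1.16 and 0.893 FPKM in Nlrp3-/-, and substrain and genotype cannot be told apart either. In bulk RNA, fewer cells of a type and less RNA per cell cannot be told apart.

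In wild-type control BMDMs the order of the receptor transcripts was Cd36, Stab1, Mrc1, Msr1, Scarb1, Marco, Colec12, Cd163 and Olr1, from 141 ± 5.45 FPKM down to 0.216 ± 0.0690 FPKM (SD, n = 3). No neighbours in that order overlapped. With LPS+ATP the wild-type order became Marco, Msr1, Cd36, Stab1, Mrc1, Olr1, Scarb1, Colec12 and Cd163, and only the libraries of Cd36 and Stab1 overlapped. In Nlrp3-/- control the order was Cd36, Mrc1, Stab1, Msr1, Marco, Scarb1, Colec12, Olr1 and Cd163, and neither Stab1 and Msr1 nor Olr1 and Cd163 were separate. With LPS+ATP, Marco and Msr1 led in Nlrp3-/- BMDMs too, followed by Cd36, Stab1, Mrc1, Scarb1, Colec12, Olr1 and Cd163.

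The make-up of the summed level of the 9 genes was recast by LPS+ATP. The sum was 433.2 ± 7.80 FPKM in wild-type control, 461.9 ± 3.90 FPKM in wild-type LPS+ATP, 348.8 ± 2.75 FPKM in Nlrp3-/- control and 372.4 ± 5.43 FPKM in Nlrp3-/- LPS+ATP (SD, n = 3). Marco made up 2.06% of the sum in wild-type control and 43.9% with LPS+ATP, and 7.75% and 48.7% in Nlrp3-/- BMDMs. Msr1 made up 9.56% and 26.1% in wild-type, and 12.9% and 22.6% in Nlrp3-/- BMDMs. The 3 leading transcripts of wild-type control cells gave way. Cd36 went from 32.6% to 11.9%, Mrc1 from 22.1% to 3.02% and Stab1 from 27.5% to 11.9% of the wild-type sum. The share of Stab1 in Nlrp3-/- BMDMs was already lower without stimulation, at 13.1%, and was 8.14% with LPS+ATP.

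**Figure D1:**
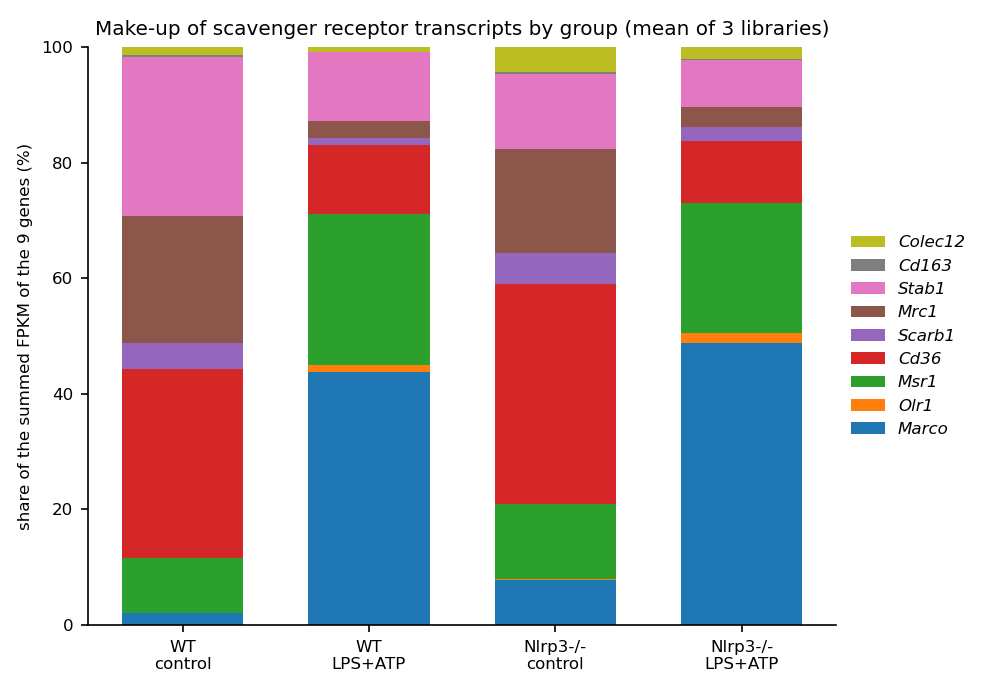
Share of the summed FPKM of the 9 scavenger receptor genes (y axis, %) taken by each gene in the 4 groups (x axis), as stacked bars of the mean of 3 libraries. Cd36, Mrc1 and Stab1 fill most of both control bars, and Marco takes 43.9% and 48.7% of the LPS+ATP bars.

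The 4 genes that changed by the criteria below in both genotypes, Marco, Olr1, Mrc1 and Cd36, and Stab1, the member with the largest fall between genotypes in control cells, are shown by the 250 bases before the RefSeq transcription start, so that members that moved together can be compared. Such a window was at hand for 6 of the 9 genes, on GRCm38.p6. The Marco window is chr1:120505025-120505274 on the minus strand, that of Olr1 chr6:129507166-129507415 on the minus strand, that of Mrc1 chr2:14229164-14229413 on the plus strand, that of Cd36 chr5:17835897-17836146 on the minus strand and that of Stab1 chr14:31168642-31168891 on the minus strand. The start used for Cd36 is not the start of a GENCODE transcript. Capitals mark matches on either strand to an AP-1 site (TGANTCA), to the PU.1 core GAGGAA or to the AGGTCA hexamer. On the other strand the core reads TTCCTC and the hexamer TGACCT. The hexamer is only a part of a nuclear receptor element, and a kappaB site was searched as well. None of the matches overlap.
Marco: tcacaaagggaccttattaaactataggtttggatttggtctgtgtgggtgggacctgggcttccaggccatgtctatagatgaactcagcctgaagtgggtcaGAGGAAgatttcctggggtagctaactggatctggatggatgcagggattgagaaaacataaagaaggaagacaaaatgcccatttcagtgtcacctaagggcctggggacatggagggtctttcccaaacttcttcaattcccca
Olr1: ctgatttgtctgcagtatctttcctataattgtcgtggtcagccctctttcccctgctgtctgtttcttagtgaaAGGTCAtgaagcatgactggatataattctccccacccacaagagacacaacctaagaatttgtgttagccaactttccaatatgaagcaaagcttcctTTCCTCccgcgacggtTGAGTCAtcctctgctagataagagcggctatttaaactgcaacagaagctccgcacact
Mrc1: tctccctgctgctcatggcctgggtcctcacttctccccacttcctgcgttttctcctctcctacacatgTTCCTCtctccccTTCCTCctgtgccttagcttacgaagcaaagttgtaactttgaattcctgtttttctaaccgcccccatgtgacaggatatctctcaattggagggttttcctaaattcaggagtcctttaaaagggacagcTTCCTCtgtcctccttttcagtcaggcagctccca
Cd36: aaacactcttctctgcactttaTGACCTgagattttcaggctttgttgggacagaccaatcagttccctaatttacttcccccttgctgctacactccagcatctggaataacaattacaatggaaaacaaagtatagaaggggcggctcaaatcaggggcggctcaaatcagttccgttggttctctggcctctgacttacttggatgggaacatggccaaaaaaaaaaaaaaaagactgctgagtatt
Stab1: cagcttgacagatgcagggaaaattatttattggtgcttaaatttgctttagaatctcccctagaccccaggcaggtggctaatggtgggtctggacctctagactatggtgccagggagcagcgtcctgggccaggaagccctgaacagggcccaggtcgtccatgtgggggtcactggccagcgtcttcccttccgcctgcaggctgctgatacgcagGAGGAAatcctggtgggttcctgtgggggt

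Marco held 1 PU.1 core, from 146 to 141 bases before the start. Olr1 held an AP-1 site from 60 to 54 and a PU.1 core from 76 to 71 bases before the start. Its AGGTCA hexamer lay from 175 to 170 bases before the start. Mrc1 held 3 PU.1 cores, all on the other strand, from 180 to 175, 167 to 162 and 35 to 30 bases before the start. Cd36 held an AGGTCA hexamer from 228 to 223 bases, and Stab1 a PU.1 core from 30 to 25 bases before the start. Over the 6 windows, Cd163 included, the PU.1 core was in 4 and the AGGTCA hexamer in 2. The AP-1 site was in 1 and the kappaB site in 0. Among all 32851 RefSeq windows of that length, 23.3% held the PU.1 core and 14% the AGGTCA hexamer. The shares were 6.75% for the AP-1 site and 7.25% for the kappaB site. The PU.1 core was in the windows of Marco and Olr1, which rose with LPS+ATP, and of Mrc1 and Stab1, which fell in wild-type. Cd36, which also fell, had none. No window was at hand for Msr1 or Scarb1, and a link between these letters and the direction of change was not tested.

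Group differences were estimated by limma from log2(FPKM + 1), a scale that understates the change of genes at low FPKM. A gene was called when its Benjamini-Hochberg adjusted p over all 12622 tested genes was under 0.05 and its difference was at least 1 on that log2 scale. All members but Cd163 passed the filter of at least 1 FPKM in at least 3 libraries, which made 8 tested genes.

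LPS+ATP turned over the scavenger receptor transcripts of wild-type BMDMs. Marco, Olr1 and Msr1 rose, and Mrc1, Scarb1, Cd36 and Stab1 fell, while Colec12 did not reach the limit. Thus 3 of 8 tested members were called higher, against 8.25% of all tested genes, and 4 were called lower, against 11.2%. Without the limit on size all 8 had an adjusted p under 0.05, as did 76.4% of all tested genes. The median log2 difference was -0.84 over the tested members and -0.26 over all tested genes. In Nlrp3-/- BMDMs, Marco and Olr1 rose and Mrc1 and Cd36 fell, which is 2 members called higher against a background of 6.64% and 2 called lower against 8.21%. All 8 again had an adjusted p under 0.05, as did 74.3% of tested genes, and the medians were -0.72 and -0.24. The control and LPS+ATP libraries did not overlap for any of the 8 tested members in either genotype, as for 78.1% of all tested genes in wild-type and 77.4% in Nlrp3-/- BMDMs, nor for Cd163.

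**Figure D2:**
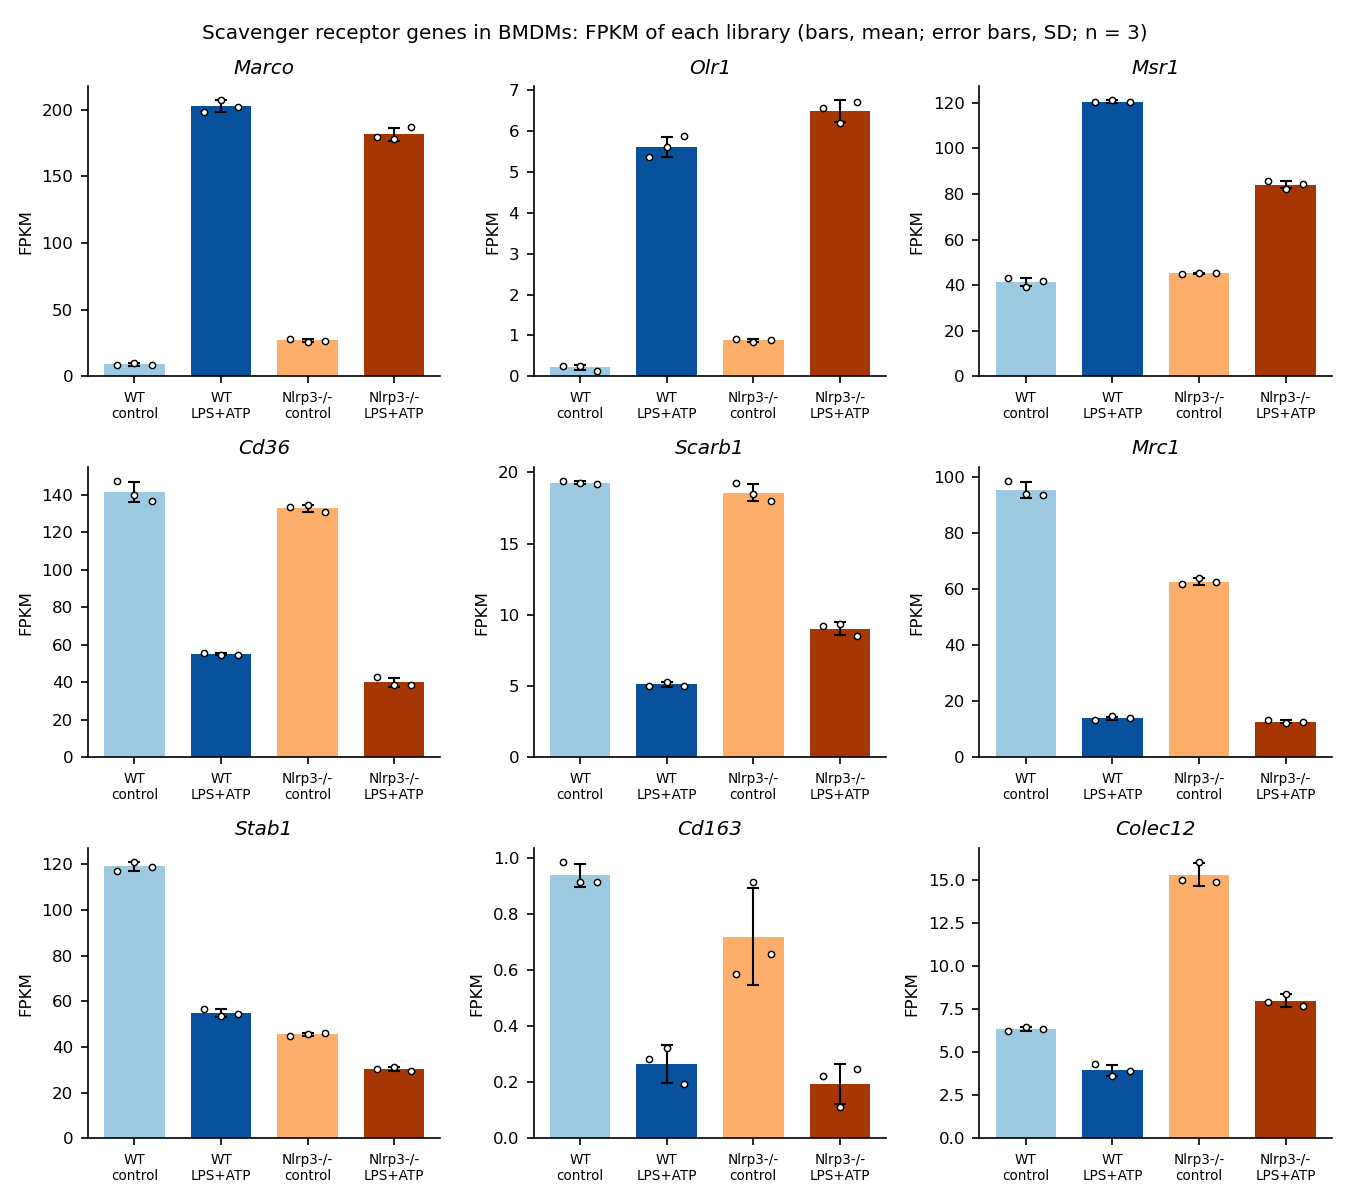
FPKM (y axis) of the 9 scavenger receptor genes in each group (x axis), with 1 panel per gene. Bars are means of 3 libraries, error bars are SD and points are libraries, and the LPS+ATP bars stand above the control bars for Marco, Olr1 and Msr1 and below them for the other 6 genes.

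Class A receptors carry a collagenous stalk and bind modified low-density lipoprotein and bacterial walls. Marco (ENSMUSG00000026390, a protein-coding gene at chr1:120474538-120505024 of GRCm38, minus strand) encodes a class A receptor that binds unopsonised bacteria and particles. It was at 8.38, 9.88 and 8.52 FPKM in wild-type control and 198, 207 and 202 FPKM in wild-type LPS+ATP. In Nlrp3-/- BMDMs it was at 28.2, 26.0 and 26.8 FPKM in control and 179.8, 178 and 187 FPKM with LPS+ATP. Every stimulated library was far above every control library, and among the control libraries all 3 of Nlrp3-/- lay above all 3 of wild-type. The rise was 22.7-fold in wild-type, a log2 difference of 4.36 (standard error 0.054, adjusted p = 4.866e-14 by limma). Nlrp3-/- BMDMs showed a 6.71-fold rise, a log2 difference of 2.70 (standard error 0.054, adjusted p = 3.071e-12 by limma). Among the 12622 tested genes these differences ranked 72 and 188 from the top.

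Msr1 (ENSMUSG00000025044, chr8:39581685-39642673, minus strand) encodes scavenger receptor A, a trimeric receptor for acetylated and oxidised lipoprotein. It was at 43.0, 39.3 and 41.9 FPKM in wild-type control and 120.2, 121 and 120.3 FPKM in wild-type LPS+ATP. The Nlrp3-/- libraries were at 44.8, 45.3 and 45.4 FPKM in control and 85.6, 82.4 and 84.4 FPKM with LPS+ATP. Control cells of both genotypes lay close together and the stimulated groups were well apart. The wild-type rise was 2.91-fold (log2 difference 1.52, standard error 0.033, adjusted p = 4.94e-12 by limma). For Nlrp3-/- BMDMs the log2 difference of 0.88 (standard error 0.033, adjusted p = 7.404e-10 by limma), a ratio of 1.86, was short of the limit, and it passed the limit at 1.17 with upper-quartile and 1.14 with median-ratio scaling of the libraries.

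Colec12 (ENSMUSG00000036103, chr18:9707595-9882644, plus strand) encodes a class A receptor with a collectin-like lectin domain, known from endothelial and stromal cells. It was at 6.23, 6.45 and 6.36 FPKM in wild-type control and 4.30, 3.64 and 3.89 FPKM in wild-type LPS+ATP. The Nlrp3-/- values were 15.02, 16.1 and 14.9 FPKM in control and 7.90, 8.40 and 7.70 FPKM with LPS+ATP. It was the only class A member of the 3 with lower values after stimulation. The log2 differences of -0.57 in wild-type and -0.86 in Nlrp3-/- BMDMs (standard error 0.055 for both, adjusted p = 2.039e-06 and 7.685e-08 by limma) were both under the limit. Of 7 annotated genes that lie within or across Colec12, none had a group mean above 0.157 FPKM.

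Class B receptors cross the membrane at both ends and handle lipids. Cd36 (ENSMUSG00000002944, chr5:17781690-17888801, minus strand) encodes a receptor for oxidised lipoprotein and long-chain fatty acids. It was at 147, 140.1 and 137 FPKM in wild-type control and 55.6, 54.7 and 54.7 FPKM in wild-type LPS+ATP. In Nlrp3-/- BMDMs it was at 133, 134 and 131 FPKM in control and 42.8, 38.7 and 38.6 FPKM with LPS+ATP. The fall was 2.57-fold in wild-type and 3.32-fold in Nlrp3-/- BMDMs, log2 differences of -1.35 and -1.71 (standard error 0.042 for both, adjusted p = 9.296e-11 and 1.621e-11 by limma). Scarb1 (ENSMUSG00000037936, chr5:125277087-125341094, minus strand) encodes the receptor for high-density lipoprotein, through which cholesterol is exchanged. Its values were 19.4, 19.2 and 19.2 FPKM in wild-type control and 5.01, 5.32 and 5.03 FPKM in wild-type LPS+ATP. Those of Nlrp3-/- BMDMs were 19.2, 18.5 and 18.02 FPKM in control and 9.23, 9.37 and 8.52 FPKM with LPS+ATP. The control groups overlapped and the stimulated groups did not. Scarb1 fell 3.77-fold in wild-type BMDMs (log2 difference -1.73, standard error 0.043, adjusted p = 1.365e-11 by limma). The difference of -0.96 in Nlrp3-/- BMDMs (adjusted p = 3.11e-09 by limma) was just under the limit, which it passed at -1.03 with a pseudocount of 0.1.

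Olr1 (ENSMUSG00000030162, chr6:129485244-129507165, minus strand) encodes LOX-1, a C-type lectin of class E that binds oxidised lipoprotein. It was at 0.255, 0.257 and 0.137 FPKM in wild-type control and 5.37, 5.61 and 5.87 FPKM in wild-type LPS+ATP. Among Nlrp3-/- libraries it was at 0.907, 0.841 and 0.893 FPKM in control and 6.57, 6.20 and 6.72 FPKM with LPS+ATP. All 6 control libraries lay under 1 FPKM and all 6 stimulated libraries above 5 FPKM. The ratio of means was 25.9 in wild-type and 7.38 in Nlrp3-/- BMDMs, but the log2 differences of 2.44 and 2.00 (standard error 0.057 for both, adjusted p = 7.801e-12 and 5.981e-11 by limma) are damped by the pseudocount at such low control levels.

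Mrc1 (ENSMUSG00000026712, chr2:14229392-14332057, plus strand) encodes the mannose receptor, which takes up mannosylated glycoproteins and is used as a marker of alternatively activated macrophages. It was at 98.8, 94.0 and 93.8 FPKM in wild-type control and 13.4, 14.6 and 13.9 FPKM in wild-type LPS+ATP. In Nlrp3-/- cells it was at 61.8, 64.1 and 62.5 FPKM in control and 13.4, 12.1 and 12.8 FPKM with LPS+ATP. Control groups differed between genotypes, and the stimulated groups came down to nearly the same level. Mrc1 had the largest fall of the members, 6.84-fold in wild-type (log2 difference -2.69, standard error 0.043, adjusted p = 3.548e-13 by limma) and 4.92-fold in Nlrp3-/- BMDMs (log2 difference -2.21, adjusted p = 2.314e-12 by limma). These ranked 70 and 95 from the bottom of the 12622 tested genes. A miRNA gene, Mir511, lies within Mrc1 on the same strand and had a group mean of at most 0.262 FPKM.

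Stab1 (ENSMUSG00000042286, chr14:31139013-31168641, minus strand) encodes stabilin-1, a class H receptor of macrophages and sinusoidal endothelium that clears matrix fragments and acetylated lipoprotein. It was at 117, 121 and 119 FPKM in wild-type control and 56.7, 53.4 and 54.4 FPKM in wild-type LPS+ATP. In Nlrp3-/- libraries it was at 44.9, 45.5 and 46.2 FPKM in control and 30.4, 31.0 and 29.4 FPKM with LPS+ATP. The unstimulated Nlrp3-/- libraries thus lay below the stimulated wild-type libraries. Stab1 fell 2.17-fold in wild-type BMDMs (log2 difference -1.10, standard error 0.032, adjusted p = 4.629e-11 by limma), and this call was lost at -0.80 with upper-quartile and -0.82 with median-ratio scaling. Its difference in Nlrp3-/- BMDMs was -0.57 (adjusted p = 2.105e-08 by limma). Nt5dc2 overlaps Stab1 by 112 bases on the opposite strand and reached a group mean of 53.3 FPKM, and without strand the reads of that stretch cannot be assigned.

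Cd163 (ENSMUSG00000008845, chr6:124304656-124330527, plus strand) encodes the receptor that takes up haemoglobin bound to haptoglobin. It was at 0.988, 0.916 and 0.915 FPKM in wild-type control and 0.282, 0.323 and 0.193 FPKM in wild-type LPS+ATP. The Nlrp3-/- libraries held 0.587, 0.916 and 0.660 FPKM in control and 0.223, 0.113 and 0.249 FPKM with LPS+ATP. All 12 libraries were under 1 FPKM, stimulated libraries were below control libraries in both genotypes, and the genotypes overlapped in each state. Ratios of means, control over LPS+ATP, were 3.53 in wild-type and 3.69 in Nlrp3-/- BMDMs. Without the filter the log2 differences were -0.62 and -0.52 (adjusted p = 9.562e-05 and 0.000345 by limma over 30133 genes), under the limit.

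**Figure D3:**
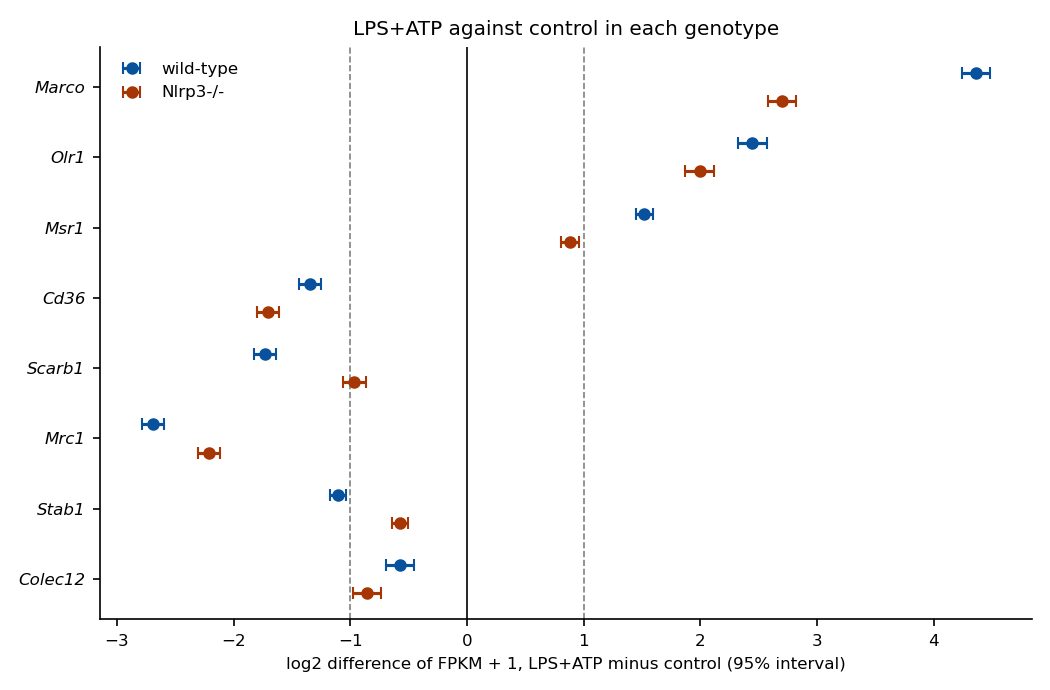
Log2 difference of FPKM + 1, LPS+ATP minus control (x axis), of the 8 tested scavenger receptor genes (y axis) in wild-type and Nlrp3-/- BMDMs. Points are limma estimates from 3 libraries per group, bars are 95% intervals and dashed lines mark the limit of 1 in either direction. The wild-type point of Marco lies at 4.36, that of Nlrp3-/- at 2.70.

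Scaling of the libraries mattered to the stimulation comparisons. Of all called genes 42.5% were higher with LPS+ATP in wild-type BMDMs from the deposited values, against 59.2% with median-ratio and 60.4% with upper-quartile scaling, which moved the median of all tested genes by 0.22 and 0.23. The matching shares in Nlrp3-/- BMDMs were 44.7%, 62.4% and 64.3%. Relative to the median of all tested genes, the wild-type differences were 4.62 for Marco, 2.70 for Olr1, 1.78 for Msr1, -0.32 for Colec12, -0.85 for Stab1, -1.09 for Cd36, -1.48 for Scarb1 and -2.43 for Mrc1. The directions were unchanged by that.

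Without stimulation, Nlrp3-/- BMDMs held more Marco and Colec12 and less Stab1 than wild-type BMDMs. That makes 2 of 8 tested members called higher, against 6.02% of all tested genes, and 1 called lower, against 0.689%. With no limit on size, 6 of 8 had an adjusted p under 0.05, 4 higher and 2 lower, against 47.8% of all tested genes. The median was 0.036 over the tested members and 0.088 over all tested genes, and the first turned to -0.18 with upper-quartile scaling. Msr1, one of the 6, lost this at an adjusted p of 0.660 with median-ratio scaling. Libraries of the genotypes did not overlap for 7 of the 8 tested members, against 56% of all tested genes.

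Marco was 3.03-fold higher in Nlrp3-/- control BMDMs, at 27.0 ± 1.13 against 8.93 ± 0.828 FPKM (SD, n = 3), a log2 difference of 1.5 (standard error 0.054, adjusted p = 1.681e-09 by limma). Colec12 was 2.41-fold higher, at 15.3 ± 0.647 against 6.35 ± 0.112 FPKM (SD, n = 3), a log2 difference of 1.15 (standard error 0.055, adjusted p = 1.679e-08 by limma), and with upper-quartile scaling it was 0.94, under the limit. Stab1 was 2.61-fold lower, at 45.6 ± 0.641 against 119 ± 1.91 FPKM (SD, n = 3), a log2 difference of -1.37 (standard error 0.032, adjusted p = 4.959e-11 by limma), which ranked 41 from the bottom of the 12622 tested genes. Cd36 and Scarb1 had log2 differences of -0.090 (95% interval -0.18 to 0.0024) and -0.052 (95% interval -0.15 to 0.043), with adjusted p of 0.1012 and 0.3524 by limma. Upper-quartile scaling moved them to -0.31 and -0.27, with adjusted p of 4.649e-05 and 0.000404 by limma, still under the limit. Mrc1 had a difference of -0.60 (adjusted p = 4.547e-07 by limma), a ratio of 1.52 between wild-type and Nlrp3-/-. Olr1 had a difference of 0.63 (adjusted p = 3.125e-06 by limma) and a ratio of means of 4.07, and it passed the limit at 1.66 with a pseudocount of 0.1 and 1.21 with TPM. Msr1 had a difference of 0.12 (adjusted p = 0.01014 by limma), which changed sign to -0.098 with upper-quartile scaling. In Cd163, tested without the filter, the difference was -0.18 (adjusted p = 0.1529 by limma).

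Fibroblast markers moved in the same direction as Marco and Colec12 in this comparison: 6 of 8 were called higher in Nlrp3-/- control, their sum was 162.6 to 167.8 FPKM in wild-type and 1189 to 1206 FPKM in Nlrp3-/- libraries, and none was at 0, though Lum and Thy1 were under 1 FPKM in wild-type. Of the 8 granulocyte markers, 7 were tested and all 7 were called higher, with Ly6g under 1 FPKM in both groups. Of all tested genes, 6.02% were called higher and 0.689% lower in this comparison. The part of these cells, or of sex, in the differences of the receptors was not tested. Of the 7 endothelial markers, of interest because Stab1 and Colec12 are also made by endothelium, 6 were tested, and 2 were called higher and 0 lower in Nlrp3-/- control. Cdh5, VE-cadherin, had a mean of 5.19 FPKM there against 1.51 FPKM in wild-type control (log2 difference 1.30, adjusted p = 4.998e-08 by limma). Pecam1, which encodes CD31, had means of 3.50 against 1.05 FPKM (log2 difference 1.14, adjusted p = 1.01e-07 by limma). The list summed to 22.9 to 25.7 FPKM in wild-type and 26.9 to 27.6 FPKM in Nlrp3-/- control, a sum led by Eng at 10.8 and 10.1 FPKM and Vwf at 8.67 and 5.29 FPKM, with Tek under 1 FPKM in both groups. The part of endothelial cells in the receptor differences was not tested. Among the 7 macrophage markers, 0 were called between genotypes in control, and 4 had an adjusted p under 0.05 by limma. Their median log2 difference was -0.36, and -0.39 with LPS+ATP, against 0.088 and 0.11 over all tested genes. Mean Cd68 was 877 FPKM in Nlrp3-/- control against 1450 FPKM for wild-type, and mean Csf1r 164 against 253 FPKM. Aif1 alone of the 7 had a higher mean there, 19.7 against 16.8 FPKM. The part of these shifts in the lower Stab1 and Mrc1 was not tested.

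With LPS+ATP, 0 of the 8 tested members were called between genotypes by limma, against 4.48% of all tested genes called higher and 0.57% called lower. All 8 had an unadjusted and an adjusted p under 0.05 without the limit on size, 3 higher and 5 lower in Nlrp3-/- BMDMs, against 48.5% of all tested genes, and the median was -0.14 against 0.11. For 3 of the 8 this depended on the setting: over the alternatives the adjusted p reached 0.0955 for Marco and 0.133 for Mrc1, without replicate 2 of wild-type and of Nlrp3-/- LPS+ATP respectively, and 0.684 for Olr1 with upper-quartile scaling. Leaving out any 1 of 4 of the 6 libraries took each of these 3 genes over 0.05. The libraries of the genotypes did not overlap for any of the 8, as for 57.9% of all tested genes. The largest differences were those of Colec12, Stab1 and Scarb1. Colec12 was 8.003 ± 0.362 FPKM in Nlrp3-/- against 3.94 ± 0.334 FPKM in wild-type BMDMs (SD, n = 3), a log2 difference of 0.87 (95% interval 0.74 to 0.99, adjusted p = 2.106e-07 by limma), and 1.00 with a pseudocount of 0.1, where it was called. Stab1 was 30.3 ± 0.817 against 54.8 ± 1.68 FPKM (SD, n = 3), a difference of -0.84 (95% interval -0.91 to -0.77, adjusted p = 3.764e-09 by limma), which was called at -1.08 with upper-quartile scaling. Scarb1 went the other way, with 9.04 ± 0.459 against 5.12 ± 0.173 FPKM (SD, n = 3) and a difference of 0.71 (adjusted p = 1.391e-07 by limma). Msr1 had a difference of -0.52 and Cd36 one of -0.45 (adjusted p = 2.45e-07 and 4.506e-06 by limma). Smaller differences were those of Marco at -0.16, Mrc1 at -0.12 and Olr1 at 0.18 (adjusted p = 0.03207, 0.03516 and 0.02128 by limma), and with upper-quartile scaling those of Marco and Mrc1 were -0.40 and -0.35 and that of Olr1 changed sign to -0.030. The fibroblast marker sum was 191.0 to 193.8 FPKM in wild-type and 928.2 to 943.6 FPKM in Nlrp3-/- LPS+ATP, and its part was not tested.

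**Figure D4:**
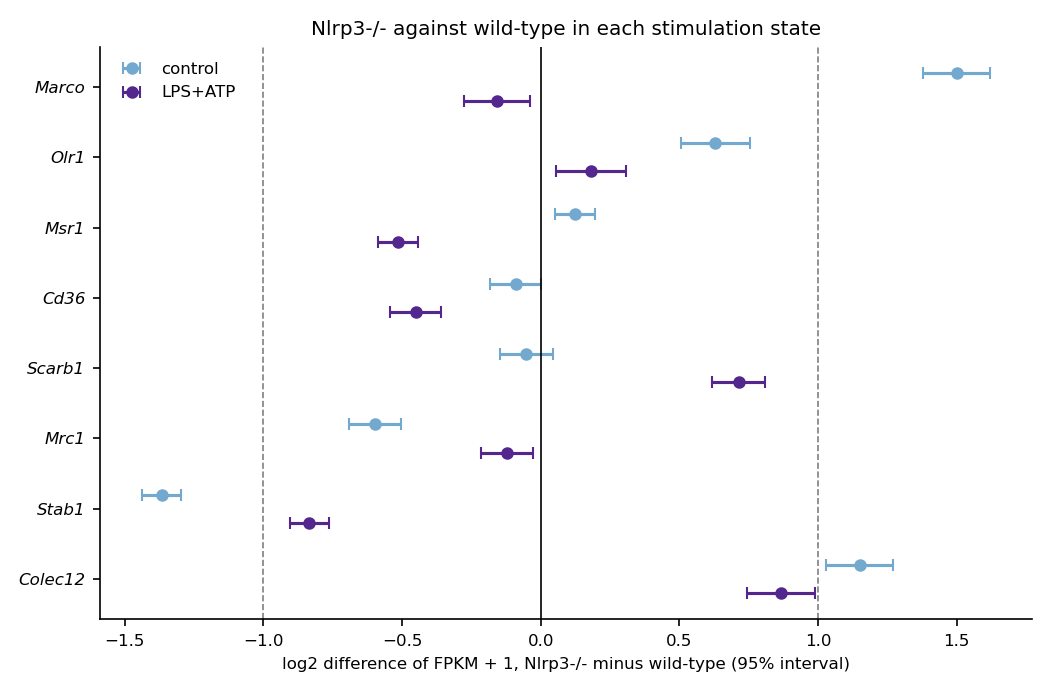
Log2 difference of FPKM + 1, Nlrp3-/- minus wild-type (x axis), of the 8 tested scavenger receptor genes (y axis) in control and LPS+ATP BMDMs. Points are limma estimates from 3 libraries per group, bars are 95% intervals and dashed lines mark the limit of 1 in either direction. Marco, Colec12 and Stab1 lie past the limit in control at 1.5, 1.15 and -1.37, and no gene does with LPS+ATP.

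The response to LPS+ATP itself was compared between genotypes by the interaction term, the Nlrp3-/- log2 difference minus the wild-type one. Marco alone was called, at -1.66 (standard error 0.076, adjusted p = 1.337e-07 by limma), which is 1 of 8 tested members called lower against 1.43% of all tested genes, with 0 called higher against 0.721%. Its control level was the higher in Nlrp3-/- BMDMs, and with LPS+ATP the genotypes were at 203 and 181 FPKM. All 8 had an adjusted p under 0.05 without the limit, against 27.7% of all tested genes, and Colec12 alone lost this under an alternative, with an adjusted p of up to 0.0676, with TPM and at a pseudocount of 0.1. Terms below 0 were those of Msr1 at -0.64 (adjusted p = 3.746e-06 by limma), Olr1 at -0.45, Cd36 at -0.36 and Colec12 at -0.28. Terms above 0 were those of Scarb1 at 0.77 (adjusted p = 5.944e-06 by limma), Stab1 at 0.53 and Mrc1 at 0.47. Msr1 and Scarb1 had close control levels in both genotypes and separate stimulated levels. With LPS+ATP, Msr1 reached 121 FPKM in wild-type against 84.1 FPKM in Nlrp3-/- BMDMs, and Scarb1 came down to 5.12 against 9.04 FPKM. For Olr1 the term was -1.45 with a pseudocount of 0.1, past the limit.

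Over the 12 libraries the log2 levels of some members followed each other closely, as a description that reflects 4 groups and shared libraries. Pearson's r was 0.991 between Marco and Olr1, -0.997 between Mrc1 and Olr1 and -0.995 between Msr1 and Scarb1. Stab1 and Colec12 followed no other tested member beyond an r of 0.753 in size. Among the other tested genes, the 3 with the highest r to Msr1 were Mdm2, which encodes the ubiquitin ligase that restrains p53 (r = 0.999), Bst1 and Tnfaip8l3. Mdm2 had means of 14.8, 62.2, 16.9 and 38.5 FPKM in control and stimulated wild-type cells and then in control and stimulated Nlrp3-/- cells. Closest to Marco were Dst, Bcl2a1a and Fpr2, the last a receptor for formyl peptides with means of 3.29, 410.3, 18.7 and 368 FPKM in the same order. Olr1 was nearest to Acpp, Ier3 and Nfkb2, the last encoding an NF-kappaB subunit. Fli1, an ETS family transcription factor, was nearest to Mrc1, before Arhgap18 and Mtss1. Cd36 was matched best by Dock8, Tnfrsf21 and Gm15922, and Scarb1 by Eef2, Ubqln2 and Birc5. Stab1 was matched best by Cd180, a Toll-like receptor homologue (r = 0.994), with means of 100, 54.1, 51.7 and 35.8 FPKM, before Cnbd2 and Fkbp15. Colec12 was nearest to Dclk1, Snai2 and Alpl. Snai2, a transcription factor known from mesenchymal cells, had means of 3.82, 1.84, 18.8 and 5.81 FPKM.

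Of 17 other scavenger receptors of classes A to L, 12 were tested. With LPS+ATP 2 were called higher and 1 lower in wild-type, where the shares of all tested genes were 8.25% and 11.2%. In Nlrp3-/- BMDMs 2 and 2 were called, against 6.64% and 8.21%. These are counts of few genes, and a difference from those shares was not tested. Cxcl16, a membrane-bound chemokine that also binds oxidised lipoprotein, rose from 32.3 ± 1.19 to 127 ± 2.69 FPKM in wild-type and from 42.1 ± 1.77 to 142 ± 1.74 FPKM in Nlrp3-/- BMDMs (SD, n = 3), log2 differences of 1.94 and 1.74 (adjusted p = 1.544e-12 and 4.951e-12 by limma). Lrp1, a large endocytic receptor, fell in wild-type BMDMs from 117 to 51.1 FPKM (log2 difference -1.17), a call held under 1 of 3 other scalings. The mean of Lrp1 in Nlrp3-/- BMDMs went from 102 to 48.2 FPKM. Clec7a, the beta-glucan receptor dectin-1, fell in Nlrp3-/- BMDMs from 224 to 77.9 FPKM (log2 difference -1.51), and its mean in wild-type went from 143 to 86.3 FPKM. In control cells 4 of these 12 were called higher in Nlrp3-/- BMDMs and 0 lower, against 6.02% and 0.689% of all tested genes. Scarf2 led, at 5.34 against 1.10 FPKM (log2 difference 1.60). With LPS+ATP 2 were called higher and 0 lower, against 4.48% and 0.57% of all tested genes, led by Scara3 at 2.97 against 0.797 FPKM (log2 difference 1.14). The list's medians were -0.37 and -0.56 for stimulation in wild-type and Nlrp3-/- BMDMs and 0.40 and 0.17 for genotype in control and LPS+ATP, the last turning to -0.05 with upper-quartile scaling.

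Among genes for the uptake, lysosomal release and storage of lipoprotein lipid, the genes called with stimulation were all lower. All 16 listed were tested, of which 7 were called lower and 0 higher in wild-type (median -0.72) and 8 lower and 0 higher in Nlrp3-/- BMDMs (median -0.83). Of all tested genes, 11.2% were called lower and 8.25% higher in wild-type, and 8.21% and 6.64% in Nlrp3-/- BMDMs. With median-ratio scaling the wild-type counts were 5 lower and 1 higher. Lpl, lipoprotein lipase, fell from 179.6 ± 16.7 to 27.2 ± 0.214 FPKM in wild-type BMDMs (SD, n = 3; log2 difference -2.68, adjusted p = 1.735e-12 by limma). The mean of Lpl in Nlrp3-/- BMDMs went from 151 to 21.4 FPKM. Fabp4, a fatty acid-binding protein, fell from 47.4 ± 1.62 to 5.68 ± 0.557 FPKM in Nlrp3-/- BMDMs (SD, n = 3; log2 difference -2.86, adjusted p = 3.578e-12 by limma). The mean of Fabp4 in wild-type BMDMs went from 42.6 to 8.59 FPKM. Between genotypes, 1 was called in each state, where 6.02% of all tested genes were called higher in control and 0.57% lower with LPS+ATP. Vldlr, the receptor for very-low-density lipoprotein, was higher in Nlrp3-/- control, at 3.47 against 0.699 FPKM (log2 difference 1.40). Abcg1, which exports cholesterol, was lower in Nlrp3-/- LPS+ATP, at 5.41 against 17.2 FPKM (log2 difference -1.51).

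Handling of haemoglobin and haem iron, which follows uptake by Cd163, went in both directions. Of 10 listed genes 9 were tested, and 4 were called higher and 2 lower with LPS+ATP in wild-type (median 0.68) and 2 and 2 in Nlrp3-/- BMDMs (median 0.67). The shares of all tested genes were 8.25% and 11.2% in wild-type and 6.64% and 8.21% in Nlrp3-/- BMDMs. Hmox1, the enzyme that opens haem, rose from 435 ± 10.6 to 4851 ± 103 FPKM in wild-type and from 414 ± 1.73 to 3195 ± 10.0 FPKM in Nlrp3-/- BMDMs (SD, n = 3), log2 differences of 3.48 and 2.94 (adjusted p = 6.197e-16 and 1.93e-15 by limma). Blvra, a biliverdin reductase, fell by 1.53 on the log2 scale in wild-type, and its mean also fell in Nlrp3-/- BMDMs, from 42.9 to 15.0 FPKM. Slc40a1, the iron exporter ferroportin, fell by 1.73 in Nlrp3-/- BMDMs, and its mean also fell in wild-type, from 20.5 to 7.20 FPKM. Hp, haptoglobin, was the 1 gene called between genotypes in control, at 221 ± 6.68 against 55.7 ± 4.17 FPKM (SD, n = 3; log2 difference 1.97), where 6.02% of all tested genes were called higher. With LPS+ATP 0 of 9 were called, against 4.48% of all tested genes called higher and 0.57% lower. An adjusted p under 0.05 by limma was seen there for 7, against 48.5% of all tested genes.

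Among genes of apoptotic cell clearance 15 of 17 were tested, with 2 called higher and 6 lower in wild-type (median -0.87) and 0 higher and 4 lower in Nlrp3-/- BMDMs (median -0.72). The shares of all tested genes were 8.25% and 11.2% in wild-type and 6.64% and 8.21% in Nlrp3-/- BMDMs. Gas6, the bridging ligand of the TAM receptors, fell from 279 ± 5.50 to 11.4 ± 0.713 FPKM in wild-type and from 90.8 ± 1.34 to 10.2 ± 0.685 FPKM in Nlrp3-/- BMDMs (SD, n = 3), log2 differences of -4.51 and -3.03 (adjusted p = 2.078e-14 and 6.387e-13 by limma). Axl, a TAM receptor, rose from 25.9 to 78.3 FPKM in wild-type BMDMs (log2 difference 1.56), and its mean in Nlrp3-/- BMDMs went from 76.5 to 150 FPKM. In control cells 2 were called higher and 1 lower in Nlrp3-/- BMDMs, against 6.02% and 0.689% of all tested genes, with Gulp1, an engulfment adaptor, at 1.65 and Gas6 at -1.61. With LPS+ATP the integrin subunit gene Itgb5 was the 1 gene called, at 1.06, a call held under 1 of 3 other scalings. Of all tested genes, 4.48% were called higher there.

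Of 5 genes of ectodomain shedding, by which Msr1, Cd163 and other receptors can be released from the surface, 2 were called higher with LPS+ATP in wild-type and 1 in Nlrp3-/- BMDMs, and 0 lower. Of all tested genes, 8.25% and 6.64% were called higher and 11.2% and 8.21% lower in wild-type and Nlrp3-/- BMDMs. Timp3, an inhibitor of the sheddase ADAM17, rose from 4.70 ± 0.243 to 24.3 ± 0.772 FPKM in wild-type (SD, n = 3; log2 difference 2.15, adjusted p = 1.364e-12 by limma). Rhbdf2, which escorts that sheddase to the surface, rose from 11.6 to 35.9 FPKM in Nlrp3-/- BMDMs (log2 difference 1.56), and its mean in wild-type went from 11.1 to 42.1 FPKM. Between genotypes 2 were called higher and 0 lower in each state, where 6.02% of all tested genes were called higher in control and 4.48% with LPS+ATP. Timp3 led in both, at 32.6 against 4.70 FPKM in control (log2 difference 2.56) and 58.7 against 24.3 FPKM with LPS+ATP.

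Of 14 transcription factors linked to scavenger receptor genes, 13 were tested, and 4 were called lower and 0 higher with LPS+ATP in each genotype. The shares of all tested genes were 11.2% and 8.25% in wild-type and 8.21% and 6.64% in Nlrp3-/- BMDMs. Pparg, the nuclear receptor known to drive Cd36, fell from 11.9 ± 0.818 to 0.591 ± 0.0927 FPKM in Nlrp3-/- BMDMs (SD, n = 3; log2 difference -3.02, adjusted p = 1.028e-11 by limma). The mean of Pparg fell in wild-type BMDMs too, from 11.1 to 0.303 FPKM. The list's median was -0.70 in wild-type and -0.15 in Nlrp3-/- BMDMs, the latter turning to 0.14 with upper-quartile scaling. Klf4 was the 1 factor called between genotypes in control, higher in Nlrp3-/- BMDMs at 9.89 against 4.04 FPKM (log2 difference 1.11), a call held under 2 of 3 other scalings. Of all tested genes, 6.02% were called higher there. With LPS+ATP 0 of 13 were called, against 4.48% of all tested genes called higher and 0.57% lower. An adjusted p under 0.05 by limma was seen there for 8, against 48.5% of all tested genes.

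Genes of alternatively activated macrophages, a state for which Mrc1 is a marker, were tested for 8 of 12 listed. With LPS+ATP 1 was called higher and 4 lower in wild-type (median -0.57), and 0 higher and 3 lower in Nlrp3-/- BMDMs (median -0.38). The shares of all tested genes were 8.25% and 11.2% in wild-type and 6.64% and 8.21% in Nlrp3-/- BMDMs. Clec10a, a galactose-type lectin, fell from 6.06 ± 0.337 to 0.132 ± 0.0147 FPKM in wild-type (SD, n = 3; log2 difference -2.64), and Chil3, a chitinase-like protein, fell from 75.7 ± 2.60 to 15.2 ± 0.944 FPKM in Nlrp3-/- BMDMs (SD, n = 3; log2 difference -2.25). In the other genotype the mean of Clec10a went from 3.10 to 0.0948 FPKM and that of Chil3 from 42.4 to 12.1 FPKM. Arg1, arginase, moved against them, from 1.14 ± 0.0896 to 16.4 ± 0.386 FPKM in wild-type (SD, n = 3; log2 difference 3.03, adjusted p = 6.622e-13 by limma). The mean of Arg1 in Nlrp3-/- BMDMs went from 12.6 to 20.9 FPKM. In control cells Arg1 was 12.6 ± 0.675 FPKM in Nlrp3-/- BMDMs (SD, n = 3), a log2 difference of 2.67 from wild-type. In that comparison 2 genes of the list were called higher and 0 lower, against 6.02% and 0.689% of all tested genes. Mrc2, a collagen receptor related to Mrc1, was the 1 gene called with LPS+ATP, at 10.1 against 2.50 FPKM (log2 difference 1.66), where 4.48% of all tested genes were called higher.

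The remaining marker lists were read in the same comparisons. With LPS+ATP, Fcgr1, a macrophage marker, rose by log2 differences of 1.97 in wild-type and 1.66 in Nlrp3-/- BMDMs. It was the 1 of 7 called in each, where 8.25% and 6.64% of all tested genes were called higher. The 6 osteoclast markers, a fate that macrophage precursors can take, summed to 61.8 to 68.4 FPKM in wild-type control. The Nlrp3-/- control sum was 96.4 to 101.9 FPKM, and with LPS+ATP the sums were 122.0 to 124.9 and 196.3 to 202.6 FPKM. Ctsk and Acp5 led, at 45.9 and 19.3 FPKM in wild-type control, where 4 of the 6 were under 1 FPKM in every library. Of the 4 tested, 2 were called higher with LPS+ATP in each genotype, against 8.25% and 6.64% of all tested genes. Between genotypes 1 was called higher in Nlrp3-/- BMDMs in each state, against 6.02% and 4.48%. The 6 dendritic cell markers summed to at most 5.62 FPKM in any library, with Cd209a at 0 in both LPS+ATP groups. Endothelial markers summed to 38.7 to 40.2 FPKM in wild-type and 35.4 to 36.6 FPKM in Nlrp3-/- LPS+ATP. The part of these cells in the receptor values was not tested.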

How the data were processed

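BMDM RNA was extracted with Trizol, and 12 libraries were prepared with an Illumina TruSeq kit. A single table of FPKM by gene was deposited by the authors, all of whose per-library columns were used. The submitters' processing notes name GRCm39 and DESeq2 1.24.0, without their role. The aligner and counter are not given in the sources used here. Depth in reads is unknown, and relative depth, taken from the spacing of low values, ran from 1 to 1.218. Pearson's r over tested genes was 0.990 to 0.993 within and 0.815 to 0.964 between groups.

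A gene entered the tests if 3 or more libraries had an FPKM of 1 or more, which left 12622 of 55335. The model in limma 3.58.1 under R 4.3.3 took log2(FPKM + 1), fitted 1 mean per group in 1 fit with a variance trend, and adjusted p by Benjamini-Hochberg. The script was first tested on simulated data. Tables and plots used Python 3.11.15, pandas 2.3.3 and matplotlib 3.10.9. Positions came from GENCODE M21 on GRCm38, which held 55154 of the gene identifiers, and promoter windows from RefSeq. No member had a near copy at 95% identity over 20% of a transcript.

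Members and gene lists were chosen with earlier results of these data known. Named were the members, Nlrp3, the called gene with the largest rise and fall of each list in each pairwise comparison, moving markers of other cells, and the 3 genes with the highest Pearson r to each called member. Xist was named as a check. The result of 1 gene that the rule names is not reported here. Alternatives were no filter, a filter at FPKM 5, a pseudocount of 0.1, no fold limit, scaling to TPM, by upper quartile or by median ratio, a block for the replicate number, dropping the variance trend, fitting only the compared groups and leaving out each replicate.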

Additional observations from a re-analysis of the deposited data

Results flagged for a closer look

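The response to LPS+ATP differed between wild-type and Nlrp3-/- BMDMs, by limma's interaction term on log2(FPKM + 1), for each of the 8 tested scavenger receptor genes, 3 above 0 and 5 below, at an adjusted p under 0.05 without a limit on size, which 27.7% of all tested genes passed. Each term is the Nlrp3-/- difference minus the wild-type difference, with 3 libraries per group. Marco had a term of -1.66 (adjusted p = 1.337e-07 by limma), the 1 term past the limit of 1. Msr1 had -0.64 and Olr1 -0.45, both through a smaller log2 rise in Nlrp3-/- BMDMs. In FPKM, the mean of Msr1 also gained less there, 38.97 against 79.22 for wild-type. The mean of Olr1 did not, gaining 5.62 FPKM against 5.40 FPKM for wild-type. Its control mean was the higher one in Nlrp3-/- cells, 0.880 FPKM against 0.216 FPKM. So were those of Marco, 27.0 against 8.93 FPKM, and Colec12, 15.3 against 6.35 FPKM. Stab1 and Mrc1 had the lower control means there, 45.6 against 119 FPKM and 62.8 against 95.5 FPKM. For Msr1, Cd36 and Scarb1 the ratios of control means, Nlrp3-/- over wild-type, were 1.09, 0.939 and 0.963. Cd36 had -0.36 and Colec12 -0.28, both through a larger difference downward in Nlrp3-/- BMDMs. Scarb1 had 0.77, Stab1 0.53 and Mrc1 0.47, each through a smaller difference downward in Nlrp3-/- BMDMs. Their adjusted p by limma were 3.746e-06 for Msr1, 0.001761 for Olr1, 0.0009939 for Cd36, 0.01931 for Colec12, 5.944e-06 for Scarb1, 9.016e-06 for Stab1 and 0.0001773 for Mrc1. That of Colec12 was over 0.05 with TPM and at a pseudocount of 0.1, reaching 0.0676, whereas those of the other 7 stayed under 0.05 in every alternative run. The sex of the mice and the levels of fibroblast and granulocyte markers also differed with genotype, as did Nnt, a gene that marks C57BL/6 substrains, and genotype cannot be told apart from sex or substrain in these libraries.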

How the results depend on the processing

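Of 680 alternative values of the 40 member differences, 644 kept their direction and their side of the limit. The number of members called was 7 for stimulation in wild-type, 4 for stimulation in Nlrp3-/-, 3 for genotype in control, 0 for genotype with LPS+ATP and 1 for the interaction, and leaving out each replicate in turn gave the same numbers, 7, 4, 3, 0 and 1, as lowest and highest. Without the fold limit 8 members were called for stimulation in Nlrp3-/-, 6 for genotype in control, 8 for genotype with LPS+ATP and 8 for the interaction, by construction. Upper-quartile and median-ratio scaling each called 3 higher and 3 lower for stimulation in wild-type, and 3 and 2 in Nlrp3-/-. For genotype in control, upper-quartile scaling called 1 higher and 1 lower, and TPM 3 and 1. With LPS+ATP, 1 member was called between genotypes at a pseudocount of 0.1 (Colec12) and 1 with upper-quartile scaling (Stab1), and at a pseudocount of 0.1 the interaction was called for 2 (Marco and Olr1). With upper-quartile scaling, the genotype difference of Msr1 in control reversed to -0.098 and that of Olr1 with LPS+ATP to -0.030. The cause was not tested.

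Over all tested genes, the counts called were 2452, 1874, 847, 637 and 271 in the same order. A pseudocount of 0.1 gave 3702, 2847, 1428, 1406 and 634. Without the fold limit there were 9641, 9383, 6035, 6124 and 3494. TPM gave 1285, 1175 and 501 for the last 3, and a filter at FPKM 5 gave 515 for genotype in control. Called genes that were higher in Nlrp3-/- BMDMs made up 89.7% in control and 88.7% with LPS+ATP, against 77.6% and 75.8% with upper-quartile scaling.

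The replicate numbers of the labels share only a number: deviations of same-numbered libraries had a Pearson's r of -0.057 to 0.053, 0 of 12 pairs were over 0.1 and 3 of 12 were best with their own number. With the replicate block the members called were again 7, 4, 3, 0 and 1, and the counts over all genes were 2453, 1876, 847, 636 and 268.

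Limits are that FPKM gives no counting error, that 3 libraries per group of unstated origin measure only their own spread, that sex, substrain and genotype cannot be told apart, and that under 1 FPKM, as in Cd163 and unstimulated Olr1, the number of reads behind a value is unknown and the pseudocount shrinks differences.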
